A study of Mus musculus with 36 samples.

Results

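The IL-1 family ligands and receptors examined here are 10 genes of a table of 43472: the receptor chains Il1r1, Il1rap, Il1rl1, Il1rl2 and Il1r2, the receptor antagonist Il1rn and the ligands Il1a, Il1b, Il18 and Il33. They were taken by symbol, and all 10 have a row. RNA was read by 3′ mRNA sequencing from wild-type primary EGCs (enteric glial cells) grown from neurospheres of embryonic mouse intestine. The cells were left unstimulated, or received H-CM, a conditioned medium of digested healthy colon, or TME-CM, a conditioned medium of digested orthotopic tumors of the colorectal cancer line MC38. Cells were collected after 6, 12 or 24 h of culture with or without a medium, with 4 libraries in each of the 9 groups, and all groups share the wild-type genotype. The question addressed is how the tumor medium changes the RNA of IL-1 signaling genes in these glial cultures.

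The IL-1 family works as a set of paired chains. IL-1α (Il1a) and IL-1β (Il1b) bind the receptor IL-1R1 (Il1r1), which then recruits the accessory chain IL-1RAcP (Il1rap) and signals through MyD88, IRAK kinases and NF-κB. The accessory chain also serves the IL-33 receptor ST2 (Il1rl1) and the IL-36 receptor (Il1rl2), while IL-18 uses chains of its own. The family carries its own brakes: IL-1RA (Il1rn) occupies the receptor without signaling, and IL-1R2 (Il1r2) is a decoy that binds IL-1 without passing the signal on. In the gut, enteric glia lie in the nerve plexuses of the bowel wall and are known to respond to IL-1 by secreting cytokines and chemokines.

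Of the 10 genes, 4 had enough counts to be tested at 6 h, 6 at 12 h and 7 at 24 h. At 24 h the signaling receptor Il1r1, its accessory chain Il1rap, the antagonist Il1rn and the IL-36 receptor Il1rl2 were higher in TME-CM EGCs than in H-CM EGCs. The ligands Il1a, Il1b and Il18 stayed too close to 0 for a test between media at every time point. Levels are given as CPM, counts scaled to a common library size with TMM factors computed within each time point, so that levels are directly comparable between media at a given hour but less so between hours. A gene is called where the Benjamini-Hochberg adjusted p of edgeR's quasi-likelihood test, taken over all genes tested, is below 0.05.

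Library totals ran from 13518 to 7552509 counts. Their median was lowest in the 6 h libraries at 1526580, and it was 4090589 in the 12 h and 5465091 in the 24 h libraries (rounded). The common dispersion, which measures the spread between libraries of a group, fell with the hour, from 0.572 (6 h) over 0.122 (12 h) to 0.0455 (24 h). H-CM 6 h replicate 4 held the 13518 counts and unstimulated 6 h replicate 3 held 256453, against at least 500000 in each of the other 34 libraries. The transcript Yam1 took 11% to 48.6% of the counts of a library. The glial markers Sox10 and S100b were present in every group, with group means between 42.4 and 118 CPM, whereas Gfap averaged 4.63 CPM or less in each. At 24 h the summed fibroblast and mesenchyme markers ranged from 4658 to 7758 CPM and the smooth muscle markers from 1853 to 8930 CPM. The cultures thus also held transcripts listed as markers of other intestinal cells, and which cells made them was not tested. In bulk RNA, fewer cells of a type and less RNA per cell cannot be told apart.

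**Figure D1:**
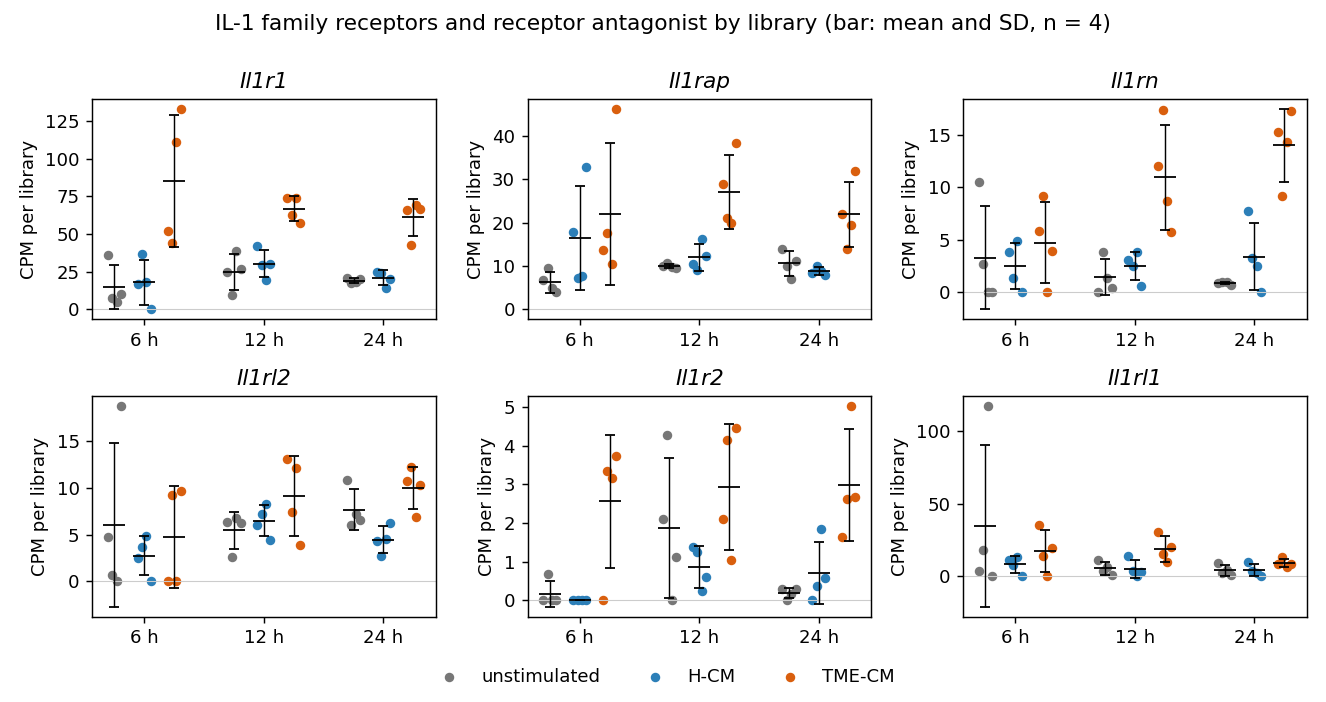
Levels of Il1r1, Il1rap, Il1rn, Il1rl2, Il1r2 and Il1rl1 in CPM (linear axes) after 6, 12 and 24 h, with 1 point per library coloured by medium and black bars for the mean and SD of 4 libraries. The TME-CM points of Il1r1 lie above all H-CM and unstimulated points at each hour, while the Il1rl1 axis is set by a single unstimulated library at 117 CPM.

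The start regions of the 4 genes called in TME-CM against H-CM EGCs at 24 h are shown because the comparison of media turns on them. RefSeq start positions on GRCm38.p6 gave 15 windows of the 250 bases before a start for the 10 genes. The windows printed here are those of the 4 called genes that held a match to any of 4 short motifs, given 5′ to 3′ with the match in capitals.
Il1r1, chr1:40224830-40225079, plus strand: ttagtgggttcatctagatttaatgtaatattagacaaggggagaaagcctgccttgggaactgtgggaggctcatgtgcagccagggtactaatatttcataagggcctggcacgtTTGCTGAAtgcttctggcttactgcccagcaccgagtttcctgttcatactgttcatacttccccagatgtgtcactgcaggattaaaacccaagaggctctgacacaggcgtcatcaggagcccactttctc
Il1r1, chr1:40266336-40266585, plus strand: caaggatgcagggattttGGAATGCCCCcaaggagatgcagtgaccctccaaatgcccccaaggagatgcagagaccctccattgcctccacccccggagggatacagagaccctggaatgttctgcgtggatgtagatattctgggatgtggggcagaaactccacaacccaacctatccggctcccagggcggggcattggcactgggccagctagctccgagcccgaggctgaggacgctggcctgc
Il1rap, chr16:26581455-26581704, plus strand: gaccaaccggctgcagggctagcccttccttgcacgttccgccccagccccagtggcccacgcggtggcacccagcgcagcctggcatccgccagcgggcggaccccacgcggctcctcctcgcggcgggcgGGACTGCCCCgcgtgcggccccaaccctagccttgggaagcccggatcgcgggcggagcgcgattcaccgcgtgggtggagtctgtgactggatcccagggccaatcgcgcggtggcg
Il1rn, chr2:24336610-24336859, plus strand: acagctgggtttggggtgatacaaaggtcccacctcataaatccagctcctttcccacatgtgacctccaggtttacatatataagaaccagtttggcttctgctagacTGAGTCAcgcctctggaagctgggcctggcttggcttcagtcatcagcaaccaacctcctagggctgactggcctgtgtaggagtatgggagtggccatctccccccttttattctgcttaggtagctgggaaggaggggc
Il1rn, chr2:24345121-24345370, plus strand: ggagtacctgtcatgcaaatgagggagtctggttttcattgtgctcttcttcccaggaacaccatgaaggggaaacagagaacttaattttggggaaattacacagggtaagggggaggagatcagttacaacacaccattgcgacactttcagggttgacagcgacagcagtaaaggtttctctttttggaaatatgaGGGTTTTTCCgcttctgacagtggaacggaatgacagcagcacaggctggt
Il1rl2, chr1:40324339-40324588, plus strand: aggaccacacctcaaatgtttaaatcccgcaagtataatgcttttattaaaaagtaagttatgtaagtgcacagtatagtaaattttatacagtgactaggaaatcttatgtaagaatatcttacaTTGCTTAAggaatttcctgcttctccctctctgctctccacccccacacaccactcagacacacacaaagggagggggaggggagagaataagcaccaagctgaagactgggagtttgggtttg

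The motifs were searched on both strands, may overlap one another and were chosen with results of these data known. GGGNNNNTCC, a loose form of the NF-κB site, was found 232 bases before the start in an Il1r1 window, 118 bases before the start of Il1rap and 51 bases before the downstream start of Il1rn. It occurs in 16.5% of all 32851 promoter windows of this length, and in 3 of the 15 windows of the members. TGANTCA, the AP-1 form, was found 141 bases before the upstream start of Il1rn and 12 bases before Il1a, and occurs in 6.75% of all windows. TTGCNNAA, a loose C/EBP form, was found in windows of Il1r1, Il1rl2, Il1rl1 and Il33, and occurs in 9.56% of all windows. TTCNNNGAA, a loose STAT form, was found in the Il1r2 window only among the members, and occurs in 7.02% of all windows. A match of letters describes the window and is not evidence of binding.

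Il1r1 and Il1rap encode the chains that form the signaling IL-1 receptor, and both were higher with TME-CM. Il1r1 lies on chromosome 1 between 40225080 and 40317257 (GRCm38, plus strand), in a cluster with Il1r2, Il1rl2 and Il1rl1. At 24 h Il1r1 measured 65.8, 42.8, 69.2 and 66.6 CPM in TME-CM EGCs, 25.1, 24.3, 14.2 and 20.0 CPM in H-CM EGCs, and 20.8, 17.5, 18.1 and 19.9 CPM in unstimulated EGCs. The lowest TME-CM library stood above the highest library of either other group, and the H-CM and unstimulated libraries overlapped. The difference from H-CM was 1.57 ± 0.20 on the log2 scale (SE, n = 4 per group, edgeR adjusted p = 2.24e-05), a 2.96-fold higher level. A single edgeR model over all 36 libraries, whose estimate of the spread includes the 6 h libraries, gave 1.55 and did not call it (adjusted p = 0.0707). The difference from unstimulated EGCs, which uses the same TME-CM libraries, was 1.69 ± 0.19 (edgeR adjusted p = 1.91e-06).

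The same order held earlier, with a wider spread, and at 6 h the share of Yam1 was also lower in most TME-CM than H-CM libraries. At 12 h Il1r1 averaged 66.9 ± 8.47 CPM in TME-CM EGCs (SD, n = 4), 30.3 ± 9.03 CPM in H-CM EGCs and 24.9 ± 11.8 CPM in unstimulated EGCs, and the TME-CM libraries again did not overlap with either other group. The log2 difference from unstimulated EGCs was 1.41 ± 0.31 (edgeR adjusted p = 0.00626; 0.0515 in the model of 36 libraries). The log2 difference from H-CM was 1.14 ± 0.30 and missed the threshold in edgeR (adjusted p = 0.0539), while DESeq2's Wald test called it (adjusted p = 0.0163). At 6 h the TME-CM libraries measured 52.2, 44.3, 111 and 133 CPM and the H-CM libraries 16.6, 36.5, 18.4 and 0 CPM, the last being the library of 13518 counts. The groups did not overlap, yet the log2 difference of 1.92 ± 0.66 did not pass (edgeR adjusted p = 0.649, unadjusted p = 0.00726), and against unstimulated EGCs the difference of 2.46 ± 0.66 did not pass either (edgeR adjusted p = 0.113). Without unstimulated 6 h replicate 1 or without TME-CM 6 h replicate 2 the latter passed, with adjusted p = 0.0441 and 0.0451, and with no filter it passed at 0.0315. In the model of 36 libraries both 6 h differences of Il1r1 passed (adjusted p = 0.0113 from H-CM and 0.000323 from unstimulated EGCs).

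Il1rap lies on chromosome 16 between 26581704 and 26730117 (GRCm38, plus strand), and its 4 coding transcripts end at 4 different positions spread over 22908 bases, so membrane and soluble forms cannot be told apart in counts per gene. At 24 h it measured 22, 14.0, 19.5 and 32.0 CPM in TME-CM EGCs, 8.38, 10.1, 8.75 and 7.99 CPM in H-CM EGCs, and 14.0, 10.01, 7.06 and 11.2 CPM in unstimulated EGCs. TME-CM was above every H-CM library, whereas its lowest library was within the unstimulated range. The log2 difference from H-CM was 1.31 ± 0.26 (edgeR adjusted p = 0.00306), and that from unstimulated EGCs 1.08 ± 0.26 (edgeR adjusted p = 0.00667). Without TME-CM 24 h replicate 4, the highest library, the difference from unstimulated EGCs was 0.84 and its adjusted p 0.0526. In the model of 36 libraries neither 24 h difference of Il1rap passed (adjusted p = 0.489 and 0.602).

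At 12 h Il1rap measured 28.8, 21.1, 19.8 and 38.3 CPM in TME-CM EGCs, 10.5, 8.96, 16.2 and 12.3 CPM in H-CM EGCs, and 9.99, 10.7, 9.84 and 9.44 CPM in unstimulated EGCs. The TME-CM libraries were the 4 highest of the 12. The log2 differences were 1.18 ± 0.30 from H-CM (edgeR adjusted p = 0.0460) and 1.44 ± 0.31 from unstimulated EGCs (edgeR adjusted p = 0.00583). The first of these lies close to the threshold: it was lost without H-CM 12 h replicate 1, 2 or 4 or without TME-CM 12 h replicate 1 or 4, where the adjusted p ran from 0.102 to 0.267. Neither 12 h difference passed in the model of 36 libraries (adjusted p = 0.601 and 0.137). The difference from H-CM was also lost with no filter, with Yam1 removed, with the replicate number as a block and in a fit of the 8 libraries compared, at adjusted p from 0.0509 to 0.0964. At 6 h the log2 differences of 0.79 ± 0.99 and 1.79 ± 0.95 did not pass (edgeR adjusted p = 0.934 and 0.815), although the second was called in the model of 36 libraries (adjusted p = 0.0248), and the 32.7 CPM of H-CM 6 h replicate 4 stood for 1 count.

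Il1rn encodes the receptor antagonist and was higher with TME-CM at 24 h. It lies on chromosome 2 between 24336853 and 24351494 (GRCm38, plus strand). At 24 h it measured 15.3, 9.16, 14.3 and 17.3 CPM in TME-CM EGCs, 7.70, 3.29, 2.47 and 0 CPM in H-CM EGCs, and 0.857, 0.909, 0.962 and 0.700 CPM in unstimulated EGCs. TME-CM did not overlap with either group, and the 4 H-CM libraries straddled the unstimulated ones. In counts, the unstimulated libraries held 3 to 6 reads of Il1rn each and the TME-CM libraries 21 to 94. The log2 difference was 1.96 ± 0.45 from H-CM (edgeR adjusted p = 0.00959) and 4.02 ± 0.53 from unstimulated EGCs (edgeR adjusted p = 1.24e-05), the latter a 16.2-fold fitted difference. The call against H-CM was lost without H-CM 24 h replicate 3 (log2 difference 1.78, adjusted p = 0.0576) and in the model of 36 libraries (adjusted p = 1).

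Il1rn was also compared between H-CM and unstimulated EGCs. At 24 h the log2 difference was 2.06 ± 0.56 and missed the threshold in edgeR (adjusted p = 0.0614, unadjusted p = 0.00139), while DESeq2 called it (adjusted p = 0.0123). Single H-CM 24 h libraries moved this value: without replicate 4, which had 0 counts of Il1rn, it was 2.32 (adjusted p = 0.0108), and without replicate 1 it was 1.40 (adjusted p = 0.331). At 12 h Il1rn measured 12.0, 17.4, 8.67 and 5.76 CPM in TME-CM EGCs, above all H-CM libraries (3.80 CPM at most) and all unstimulated libraries (3.85 CPM at most). The log2 difference from unstimulated EGCs was 3.00 ± 0.81 (edgeR adjusted p = 0.0331), a call that was lost without unstimulated 12 h replicate 1, 3 or 4 or without TME-CM 12 h replicate 1, 2 or 3, with adjusted p from 0.0589 to 0.133, and in the model of 36 libraries (adjusted p = 0.150). The log2 difference from H-CM of 2.15 ± 0.74 did not pass (edgeR adjusted p = 0.205). At 6 h Il1rn was not tested, with at most 29 counts in a library.

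Il1r2, the decoy receptor at 40074079 to 40125231 on chromosome 1 (GRCm38, plus strand), was a low transcript that was tested between media only at 24 h. It then measured 1.63, 2.62, 5.03 and 2.66 CPM in TME-CM EGCs, 0, 0.366, 1.85 and 0.571 CPM in H-CM EGCs, and 0.286, 0, 0.160 and 0.280 CPM in unstimulated EGCs. TME-CM stood apart from the unstimulated libraries and overlapped with H-CM at its replicate 3. The fitted log2 difference from unstimulated EGCs was 3.91 ± 0.90 (edgeR adjusted p = 0.00503), against 4 reads in all 4 unstimulated libraries together, so that its size is uncertain, and it was not called in the model of 36 libraries (adjusted p = 0.127). Against H-CM the difference of 1.89 ± 0.75 did not pass (edgeR adjusted p = 0.183), and without H-CM 24 h replicate 3 it was 3.4 (adjusted p = 0.0651).

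Neither Il1rn nor Il1r2 reached the minimum of the count filter at 24 h (1.83 CPM of the plain library total) in any unstimulated library. Il1rn reached it in 4 TME-CM and 3 H-CM libraries and Il1r2 in 3 TME-CM and 1 H-CM library. Both were therefore tested through the media in which they were high, and their calls cannot be counted as independent of that.

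Il1rl2, the ligand-binding chain of the IL-36 receptor, lies between 40324610 and 40367562 on chromosome 1 (GRCm38, plus strand). At 24 h it measured 10.7, 12.2, 6.86 and 10.3 CPM in TME-CM EGCs, 4.30, 2.74, 4.56 and 6.28 CPM in H-CM EGCs, and 10.8, 6.01, 7.22 and 6.58 CPM in unstimulated EGCs. All 4 H-CM libraries lay below the lowest TME-CM library, while 2 unstimulated libraries fell within the TME-CM range and 2 below it, and the H-CM and unstimulated ranges overlapped. The log2 difference of TME-CM from H-CM was 1.20 ± 0.33 (edgeR adjusted p = 0.0330), that of TME-CM from unstimulated EGCs 0.39 ± 0.31 (edgeR adjusted p = 0.600) and that of H-CM from unstimulated EGCs -0.82 ± 0.33 (edgeR adjusted p = 0.329). The call was lost without H-CM 24 h replicate 1, 2 or 3 or without TME-CM 24 h replicate 1, 2 or 4, with adjusted p from 0.0595 to 0.142, and in the model of 36 libraries (adjusted p = 1). At 12 h the differences of TME-CM from H-CM and from unstimulated EGCs were 0.51 ± 0.47 and 0.73 ± 0.49 and did not pass (edgeR adjusted p = 0.785 and 0.662).

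Il1rl1, which encodes the IL-33 receptor ST2, lies between 40429570 and 40465415 on chromosome 1 (GRCm38, plus strand), and its coding transcripts end at 5 positions spread over 24008 bases, so the soluble and membrane forms cannot be told apart. At 12 h it measured 30.7, 15.3, 9.70 and 20.2 CPM in TME-CM EGCs, 14.3, 3.76, 0.237 and 3.10 CPM in H-CM EGCs, and 11, 3.85, 6.56 and 0.972 CPM in unstimulated EGCs. TME-CM held the 3 highest of the 12 libraries but overlapped with both other groups. The log2 differences of 1.86 ± 0.75 from H-CM and 1.85 ± 0.77 from unstimulated EGCs did not pass (edgeR adjusted p = 0.350 and 0.297), but both did with no filter on low counts (adjusted p = 0.00914 and 0.00795). Without H-CM 12 h replicate 1 the former was 2.95 and passed (adjusted p = 0.0366). At 24 h the differences were 1.0 ± 0.63 and 1.22 ± 0.64 (edgeR adjusted p = 0.50 and 0.332), the latter called with no filter (adjusted p = 0.0448), and at 6 h 0.76 ± 1.31 and -0.84 ± 1.26 (edgeR adjusted p = 0.942 and 0.954). Leaving out unstimulated 6 h replicate 3, which held 117 CPM of Il1rl1 on 24 counts, turned the last value to 1.28 (adjusted p = 0.999).

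ST2 is a known product of mast cells, and mast cell transcripts were present in part of the libraries. All 6 markers of the list (Cpa3, Mcpt4, Tpsb2, Fcer1a, Ms4a2 and Hdc) had counts in the 24 h groups. The summed markers reached 332 CPM in unstimulated 6 h replicate 3, the library with the most Il1rl1, and 94.2 CPM in unstimulated 6 h replicate 2, where Il1rl1 was 18.2 CPM. Unstimulated 6 h replicate 4 held 0.182 CPM of the markers and no read of Il1rl1. In TME-CM EGCs at 6 h the values parted: replicate 1 held 35.4 CPM of Il1rl1 with no mast cell marker count, and replicate 4 held 19.8 CPM with 0.746 CPM of markers. In the 12 h groups the markers ranged from 7.02 to 58.0 CPM with TME-CM, from 0 to 27.0 CPM with H-CM and from 7.36 to 53.9 CPM in unstimulated EGCs. The part of mast cell transcripts in the Il1rl1 differences was not tested.

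**Figure D2:**
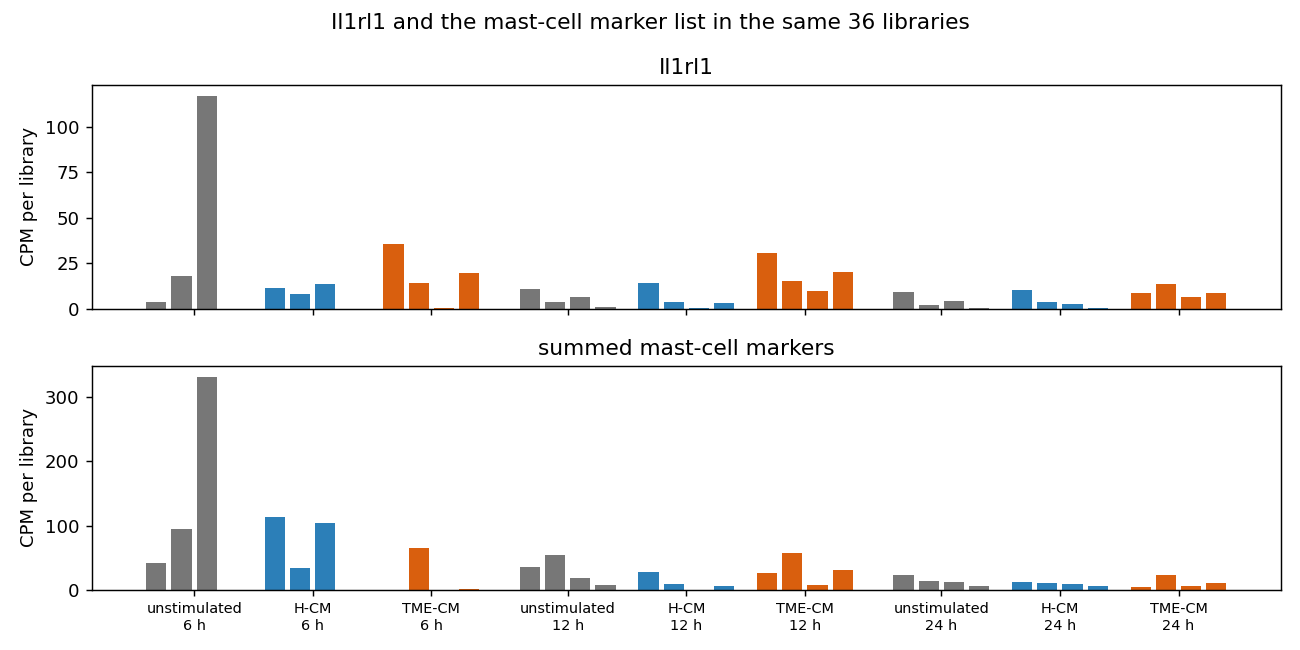
Il1rl1 (top) and the sum of the 6 mast cell markers (bottom) in CPM for each of the 36 libraries in replicate order, coloured by medium. Unstimulated 6 h replicate 3 is highest in both at 117 and 332 CPM, whereas TME-CM 6 h replicate 1 has 35.4 CPM of Il1rl1 and no marker count.

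Il33, the alarmin that ST2 binds, was the only ligand tested between media. It lies on chromosome 19 between 29925114 and 29960718 (GRCm38, plus strand). At 12 h it measured 14.5, 6.63, 12.0 and 11.8 CPM in TME-CM EGCs, 11, 5.02, 2.85 and 3.84 CPM in H-CM EGCs, and 2.10, 0.428, 9.02 and 1.39 CPM in unstimulated EGCs. The groups overlapped, and the log2 differences of TME-CM of 1.0 ± 0.63 from H-CM and 1.76 ± 0.66 from unstimulated EGCs did not pass (edgeR adjusted p = 0.636 and 0.194). Without unstimulated 12 h replicate 3 the latter was 3.10 and passed (adjusted p = 0.0117). At 24 h the group means were 8.03 ± 3.45, 6.71 ± 0.832 and 5.80 ± 1.76 CPM for TME-CM, H-CM and unstimulated EGCs (SD, n = 4), and the log2 difference of TME-CM from H-CM was 0.27 ± 0.34 (edgeR adjusted p = 0.788). At 6 h the TME-CM mean of 22.2 CPM was set by replicate 3 at 65.7 CPM, with the others between 2.05 and 16.0 CPM.

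The agonists of IL-1R1 were almost absent from the RNA of these cultures. Il1a (chromosome 2, 129299610 to 129309972, minus strand) had no count in any of the 12 unstimulated libraries, 17 counts over 4 of the 12 H-CM libraries and 46 counts over 6 of the 12 TME-CM libraries. At 24 h, 3 counts over the 4 unstimulated libraries together would be 0.133 CPM, the upper limit that a count of 0 allows. Its highest levels were 4.45 CPM in TME-CM 12 h replicate 4, 3.18 CPM in TME-CM 6 h replicate 4 and 2.85 CPM in H-CM 12 h replicate 3. Il1b (chromosome 2, 129364570 to 129371139, minus strand) had 33 counts in 7 unstimulated, 31 counts in 6 H-CM and 55 counts in 10 TME-CM libraries, never over 12 in a library. At 24 h it averaged 1.74 ± 2.35 CPM with TME-CM, 0.215 ± 0.253 CPM with H-CM and 0.487 ± 0.479 CPM without stimulation (SD, n = 4). The SD with TME-CM, where replicate 2 stood at 5.23 CPM, was larger than the differences between these means, and the groups overlapped.

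Macrophages and monocytes are known sources of IL-1β, and 13 markers of them gave sums whose ranges overlapped between media. At 24 h the median sum was 198 CPM with TME-CM, 200 CPM with H-CM and 160 CPM in unstimulated EGCs, with ranges of 91.2 to 437, 93.6 to 403 and 67.3 to 270 CPM. The highest sum of each set of 12 libraries at 12 h and 24 h fell on TME-CM replicate 2, which held 2.49 CPM of Il1b at 12 h and 5.23 CPM at 24 h. Other libraries parted: H-CM 24 h replicate 2 had a sum of 403 CPM with 0.366 CPM of Il1b. TME-CM 6 h replicate 1 had 404 CPM with no count of Il1b, and TME-CM 12 h replicate 4 had 113 CPM with 2.88 CPM. The part of macrophage transcripts in the Il1b levels was not tested. Il18 (chromosome 9, 50554827 to 50581840, plus strand) had no count in the 12 libraries of 6 h, and 40 counts in all over 10 libraries. Its highest count was 16, in H-CM 24 h replicate 3, at 1.97 CPM. Il1a and Il1b share exon bases with an annotated gene on the opposite strand (Gm14023 and Il1bos), as does Il1rap (Gm20319), and whether the counting used strand is not given in the sources used here.

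**Figure D3:**
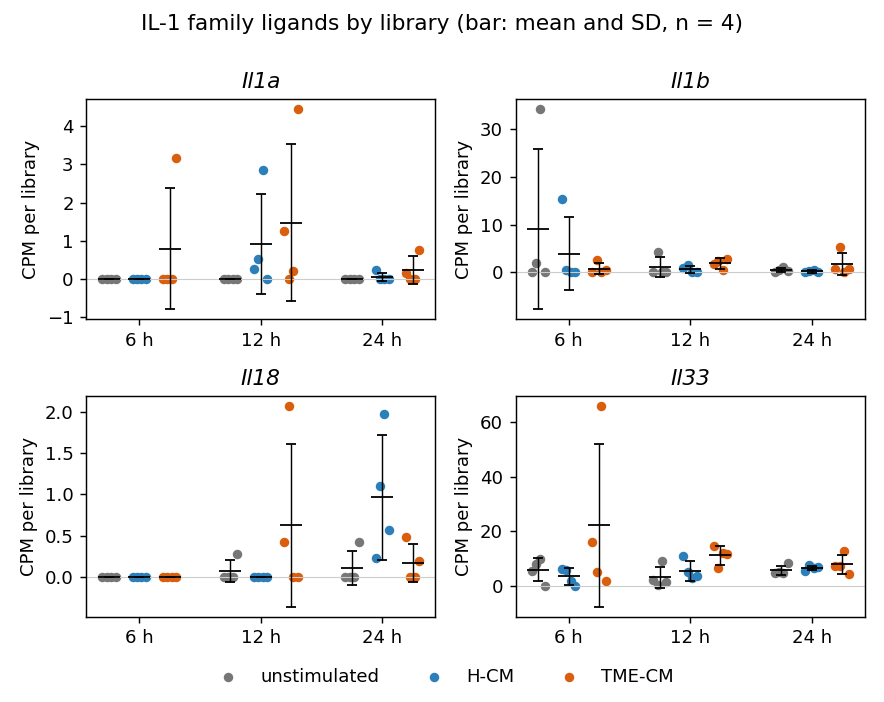
Levels of the ligands Il1a, Il1b, Il18 and Il33 in CPM (linear axes) after 6, 12 and 24 h, with 1 point per library coloured by medium and black bars for the mean and SD of 4 libraries. All Il1a points lie at or below 4.45 CPM and all Il18 points at or below 2.07 CPM, and the highest Il1b point, at 34.2 CPM, stands for 7 counts in a library of 256453.

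Counted over the members, TME-CM against H-CM gave 0 calls of 4 tested at 6 h (background 0.0972% of all genes tested called higher), 1 of 6 at 12 h (1.22%) and 4 of 7 at 24 h (2.75%). All 5 calls were higher in TME-CM. Il1rn, among the 4 at 24 h, reached the filter minimum in 4 TME-CM, 3 H-CM and 0 unstimulated libraries. Nothing is therefore read from the 24 h counts of calls or of groups without overlap against their backgrounds. The other calls at 24 h were Il1r1, Il1rap and Il1rl2, each past the minimum in all 4 libraries of every medium. At 6 h, 1 member had an unadjusted p under 0.05 (6.07% of all genes), and DESeq2 called 0. Groups did not overlap for 1, 3 and 4 members, where 3.47%, 4.01% and 5.47% of all genes tested were likewise higher without overlap. Against unstimulated EGCs the calls of TME-CM were 0 of 4 at 6 h (0.432%), 3 of 6 at 12 h (2.67%) and 4 of 7 at 24 h (4.82%), all higher. The 4 at 24 h include Il1rn and Il1r2, which passed the filter through the media alone, so nothing is read from that count against the background. The other 2 were Il1r1 and Il1rap. Here 2, 3 and 3 members were higher without overlap, beside 2.3%, 5.82% and 6.65% of all genes. The 3 calls against unstimulated EGCs at 12 h include Il1rn, as do the 3 members without overlap at 12 h in each comparison. Il1rn reached the 12 h filter minimum in 1 unstimulated, 3 H-CM and 4 TME-CM libraries. Nothing is therefore read from these 12 h counts against their backgrounds. At 6 h, 1 member had an unadjusted p under 0.05 (6.19% of all genes) and DESeq2 called 0. The median log2 difference of the members tested at 24 h was 1.31 from H-CM and 1.22 from unstimulated EGCs, as a description of members that passed the filter. Over all genes it was 0.00490 and 0.00436. The medians of the members include Il1rn and Il1r2, so nothing is read from them against all genes.

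**Figure D4:**
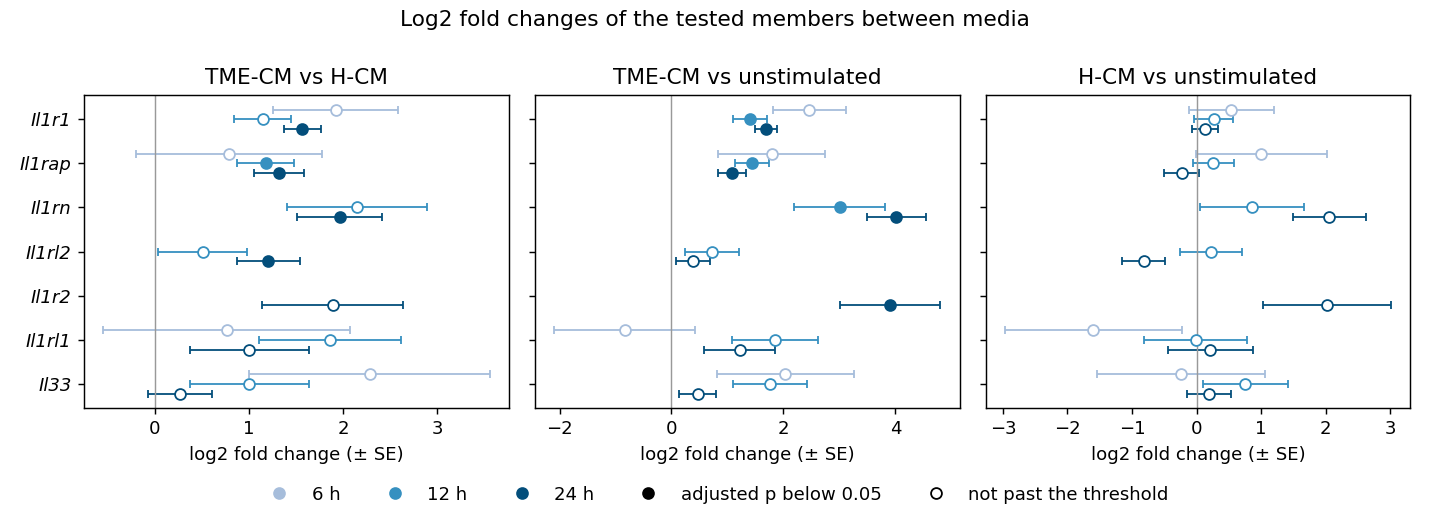
Log2 fold changes with SE for the members tested in each comparison of media, after 6, 12 and 24 h, filled where the edgeR adjusted p is below 0.05. The filled points lie to the right of 0 in both TME-CM panels, and the panel of H-CM against unstimulated EGCs has none.

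H-CM by itself gave no call among the members in edgeR at 6 h, 12 h or 24 h, where 0%, 0.403% and 2.03% of all genes tested were called in either direction. At an unadjusted p under 0.05 the counts were 0, 0 and 2 (Il1rn and Il1rl2), beside 0.627%, 5.66% and 10.6% of all genes. DESeq2 called 0, 0 and 1. For Il1r1 the log2 difference of H-CM from unstimulated EGCs was 0.54 ± 0.67 (6 h), 0.27 ± 0.30 (12 h) and 0.13 ± 0.20 (24 h). For Il1rap it was 1.0 ± 1.02, 0.26 ± 0.31 and -0.23 ± 0.27. These SEs leave room at 6 h for differences as large as those called at 24 h.

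Changes with time within a medium were tested between 6 h and 12 h and between 12 h and 24 h. No member was called by edgeR in any of the 6 comparisons, and DESeq2 called 0 as well. At an unadjusted p under 0.05 there were 1 and 2 members in unstimulated EGCs (6.06% and 5.3% of all genes), 0 and 1 with H-CM (5.41% and 6.23%) and 0 and 0 with TME-CM (17.4% and 7.89%). The share of all genes called in either direction was 0.205% and 0.0153% for unstimulated EGCs, 0.0395% and 0.00763% for H-CM and 1.39% and 0.626% for TME-CM. For Il1r1 in TME-CM EGCs the log2 change was -0.64 ± 0.47 from 6 h to 12 h and -0.26 ± 0.25 from 12 h to 24 h. For Il1rn in TME-CM EGCs it was 0.97 ± 1.13 and 0.25 ± 0.57.

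Whether the difference between TME-CM and H-CM itself changed with time was tested as an interaction. It was called for 0 members between 6 h and 24 h and for 0 between 12 h and 24 h, with 0 members at an unadjusted p under 0.05 in each and 0 called by DESeq2, beside 0.0155% and 0% of all genes called and 9.53% and 3.33% at an unadjusted p under 0.05. The interaction of Il1r1 was -0.35 ± 0.66 between 6 h and 24 h and 0.43 ± 0.37 between 12 h and 24 h on the log2 scale. Il1rl2, called at 24 h and not at 12 h, had an interaction of 0.69 ± 0.56, and Il1rn one of -0.16 ± 0.84. The calls that appear at 24 h and not earlier are thus not shown to differ between hours.

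The rest of the pathway was followed in 5 lists. Among 11 further family members, which include the IL-36 ligands and the IL-18 receptor chains, Il18rap alone was tested, and its log2 difference between TME-CM and H-CM at 24 h of 1.04 ± 0.43 did not pass (edgeR adjusted p = 0.213). The adaptors and kinases that carry the signal from the receptor had 14 tested members, of which 0 were called at 24 h in edgeR, 2 had an unadjusted p under 0.05 (16% of all genes) and DESeq2 called 1. Among them, Myd88 averaged 36.7 ± 4.56 CPM with TME-CM and 25.1 ± 3.53 CPM with H-CM (SD, n = 4, edgeR adjusted p = 0.0771), and Irak4 25.6 ± 5.05 and 29.0 ± 1.63 CPM. At 12 h 1 of the 14 was called higher (1.22% of all genes): Irak3, the kinase-like inhibitor IRAK-M, rose by 2.48 ± 0.55 from 3.15 to 18.1 CPM (edgeR adjusted p = 0.0187).

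NF-κB subunits and their inhibitors had 16 tested members at 24 h, of which 5 were higher and 0 lower in TME-CM than in H-CM, beside 2.75% and 2.65% of all genes. The 5 were inhibitors or modulators: Nfkbia, which encodes IκBα, went from 224 to 451 CPM (log2 difference 1.01 ± 0.12, edgeR adjusted p = 1.24e-05). Nfkbiz, encoding the nuclear IκBζ, went from 38.6 to 136 CPM (1.82 ± 0.19, edgeR adjusted p = 3.93e-06). Bcl3, a nuclear IκB protein, went from 12.2 to 56.9 CPM (2.22 ± 0.31, edgeR adjusted p = 0.000155), and Zc3h12a, the RNase Regnase-1, from 3.44 to 14.6 CPM (2.14 ± 0.46, edgeR adjusted p = 0.00551). Tnip1, a partner of A20, was called at 24 h too, and at 12 h went from 54.0 to 110 CPM (1.02 ± 0.23, edgeR adjusted p = 0.0189). The subunit genes Rela, Relb, Rel, Nfkb1 and Nfkb2 were not called at 24 h.

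Among the genes of inflammasomes and ligand processing, 8 of 16 were tested at 24 h and 1 was called higher (2.75% of all genes), Casp4 (caspase-11, which senses cytosolic lipopolysaccharide), at 13.0 CPM with TME-CM and 1.99 CPM with H-CM (2.69 ± 0.38, edgeR adjusted p = 9.30e-05). Casp1, which cleaves pro-IL-1β and pro-IL-18, was too low for the test at 0.467 ± 0.336 CPM with TME-CM and 0.980 ± 0.953 CPM with H-CM (SD, n = 4), and so was Nlrp3.

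Of 16 genes known as IL-1 responders, 13 of the 14 tested at 24 h were higher in TME-CM, as were 11 of 15 at 12 h and 2 of 11 at 6 h, and 0 were lower. Of all genes tested, 2.75%, 1.22% and 0.0972% were called higher in these comparisons. Other cytokines can raise the same genes, and the list was drawn up with results of these data known. With H-CM, some averaged less than the minimum of the count filter: Nos2 at 24 h (0.745 against 1.83 CPM) and Csf3 and Il6 at 12 h (0.344 and 1.43 against 2.44 CPM). Such genes could enter the test through the medium in which they were high. Nothing is therefore read from the counts of this list against the background. The largest differences at 24 h were those of Nos2, the inducible nitric oxide synthase (0.745 to 43.9 CPM, log2 difference 5.88 ± 0.57, edgeR adjusted p = 7.43e-06), and Lcn2, lipocalin 2 (35.1 to 1127 CPM, 4.97 ± 0.69, edgeR adjusted p = 0.00218). Saa3, an acute-phase serum amyloid, went from 675 to 17160 CPM (4.67 ± 0.70, edgeR adjusted p = 0.00337), and Cxcl2, a neutrophil chemokine, from 4.07 to 70.4 CPM (4.22 ± 0.48, edgeR adjusted p = 9.69e-05). At 12 h Csf3 (G-CSF) and Il6 differed by 5.05 ± 1.19 and 4.97 ± 0.66 (edgeR adjusted p = 0.0282 and 0.000334). With H-CM alone, 3 of 15 of the list at 12 h and 5 of 14 at 24 h were higher than in unstimulated EGCs, where 0.354% and 1.07% of all genes were.

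**Figure D5:**
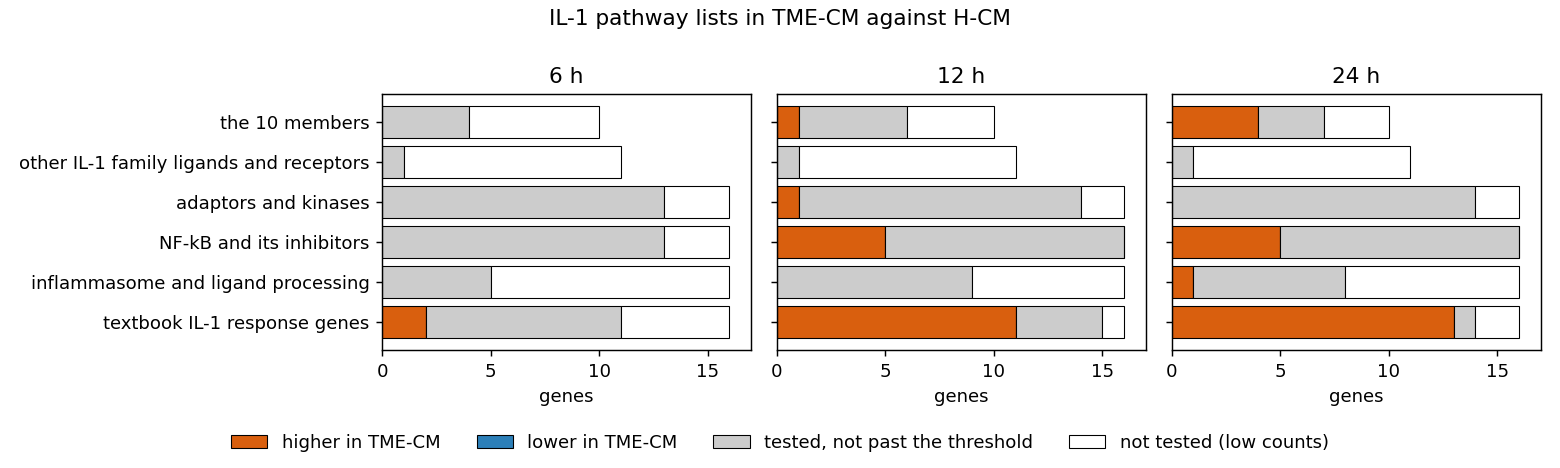
Number of genes of the 10 members and of 5 IL-1 pathway lists that were higher or lower in TME-CM than in H-CM, tested without passing the threshold, or not tested, after 6, 12 and 24 h. Of the IL-1 response genes 13 are higher at 24 h, of the adaptors and kinases 0, and no list has a gene called lower.

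Markers of other cells also moved between these media at 24 h. Of 6 smooth muscle markers 4 were lower in TME-CM than in H-CM (2.65% of all genes), with median sums of 2346 and 3709 CPM. Of 6 fibroblast and mesenchyme markers 4 were higher (2.75% of all genes), with median sums of 7639 and 5357 CPM. The neutrophil list summed to 20.6 to 46.5 CPM with TME-CM and 4.68 to 8.38 CPM with H-CM, carried by S100a8 and Camp, while Csf3r and Ly6g had no count in any 24 h library. The 5 endothelial markers summed to 11.6 to 28.0 CPM with TME-CM and 36.2 to 69.6 CPM with H-CM, without overlap, carried by Kdr, while Cdh5 and Vwf averaged 0.340 CPM or less in both. Of the 2 endothelial markers tested, 1 was lower (2.65% of all genes). The endothelial sums did not overlap at 12 h either, at 24.9 to 39.8 and 44.3 to 56.4 CPM. The 7 glial markers had 0 calls in edgeR (2.75% of all genes higher and 2.65% lower), with 1 at an unadjusted p under 0.05 (16% of all genes). Their median sums were 220.1 and 243 CPM. The part of these shifts in the receptor differences was not tested.

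The genes whose group means most resembled each member were sought over the 9 groups by Pearson correlation of log2 CPM, as a description without a test, since the 9 means share their libraries and the media dominate them. For Il1r1 they were Olr1 (r = 0.972), Maff (0.967) and Pfkfb3 (0.967). For Il1rap they were Odc1 (0.945), Chst11 (0.944) and Tm4sf1 (0.940), and for Il1rn Zbp1 (0.984), Ptgs2os2 (0.982) and Lcn2 (0.979). Il1rl1 was closest to Cxcl9 (0.941), Il1rl2 to Fancl (0.971) and Il33 to Ifi47 (0.945). Among the members themselves, Il1r1 correlated with Il1rap at r = 0.794, with Il33 at r = 0.758 and with Il1rn at r = 0.698. Il1rap correlated with Il1rn at r = 0.799. The highest of the pairs compared was Il1rl1 with Il1b at r = 0.803, where Il1b never had over 12 counts in a library. Il1rl2 and Il1rl1, neighbours on chromosome 1, gave r = -0.0138.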

How the data were processed

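Gene expression was measured in 36 libraries of primary murine EGCs, with 4 libraries in each of 9 groups of medium and time. The deposited values are raw counts per gene symbol, which the authors made from QuantSeq 3′ reads by adapter filtering, quality control with FastQC 0.11.7, alignment to mm10 with HISAT2, removal of reads with multiple alignments, SAMtools 1.5 and HT-seq Count. The gene annotation, the strand setting and the use of molecular identifiers are not given in the sources used here, so a count may hold PCR copies and the limit from a count of 0 covers counting error only. The labels number the replicates and do not say whether they came from separate cultures, so p-values measure the spread between these samples, which may be technical. No 2 libraries held identical values among 630 pairs, and 0 columns were left out.

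Tests used edgeR 4.0.16 (R 4.3.3), which rests on limma 3.58.1, and, as an alternative, DESeq2 1.42.0. Genes were kept by filterByExpr (minimum count 10), libraries were scaled with TMM factors, and a robust quasi-likelihood model with 1 coefficient per group was fitted to all 12 libraries of a time point, or to the 24 libraries of a pair of time points for changes with time and interactions. P-values were adjusted by Benjamini-Hochberg over all genes tested, 9256 at 6 h, 12156 at 12 h and 12713 at 24 h. SEs are the log2 fold change divided by the square root of F, and the calling was tested on simulated counts of TME-CM against H-CM. With a true log2 difference of 1 in size it recovered 2 of 90 genes at 6 h, 30 of 99 at 12 h and 63 of 100 at 24 h. With a size of 2 it recovered 13 of 92, 79 of 100 and 88 of 100. A missing call at 6 h therefore says little about whether a gene changed. Pathway and marker lists, the members and the motifs were chosen with earlier results of these data known. Genes named are all 10 members and, per list, up to 4 called genes with the largest difference between TME-CM and H-CM at 24 h and a mean of at least 5 CPM in a group, with up to 2 more from 12 h. Myd88, Irak4, Casp1, Nlrp3, Il18rap, the NF-κB subunits and single markers were named after their values were seen. From the glial marker list, 1 gene is not reported here. Of the lists, 4 IL-36 genes were found under older symbols through RefSeq synonyms. Resemblance used log2 CPM with a prior count of 2. Positions are from GENCODE vM21 on GRCm38, the assembly also called mm10, and promoter windows from RefSeq on GRCm38.p6.

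Alternatives were DESeq2 size factors, no filter, DESeq2's Wald test, Yam1 removed, the replicate number as a block, 1 model of all 36 libraries, only the 8 libraries compared, and the removal of 1 library at a time. Leaving out H-CM 6 h replicate 4 from comparisons it is not part of, and both libraries under 500000 counts, was added after the data were seen.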

Additional observations from a re-analysis of the deposited data

Results flagged for a closer look

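Among 74 combinations of a member and a group with more than 3 counts in a library, 10 held a library whose gap to the nearest other took a share of the range of the 4 libraries above Dixon's 95% critical value. For normally distributed levels chance flags about 1 in 20 groups. Levels that rest on few counts are not so distributed, and the 10 flags are not read against that rate. For Il1r1, TME-CM 24 h replicate 2 measured 42.8 CPM against 65.8 to 69.2 CPM in the other 3. For Il1rl1, unstimulated 6 h replicate 3 measured 117 CPM on 24 counts, against 0 to 18.2 CPM. For Il1rl2, unstimulated 12 h replicate 2 measured 2.57 CPM against 6.25 to 6.83 CPM. For Il1r2, TME-CM 6 h replicate 1 was at 0 CPM against 3.16 to 3.74 CPM. For Il1a, TME-CM 6 h replicate 4 held 17 counts (3.18 CPM), and the other 3 held none.

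Il1b gave 4 of the 10 flags. Unstimulated 6 h replicate 3 stood at 34.2 CPM on 7 counts, H-CM 6 h replicate 1 at 15.3 CPM on 12 counts, unstimulated 12 h replicate 2 at 4.28 CPM on 10 counts and TME-CM 24 h replicate 2 at 5.23 CPM on 12 counts, beside 2.02 CPM or less in the other libraries of their groups. The summed macrophage and monocyte markers of these 4 libraries were 659, 344, 347 and 437 CPM. These were the highest sums of their groups except in H-CM 6 h, where replicate 2 had 358 CPM of markers and 0.457 CPM of Il1b. The part of these markers in the Il1b values was not tested. For Il33, unstimulated 24 h replicate 4 measured 8.40 CPM against 4.65 to 5.28 CPM.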

How the results depend on the processing

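Among 17 counts of members called, 10 kept a count within 1.5 times under every alternative run. The model of all 36 libraries, whose spread includes the 6 h libraries, moved the counts of TME-CM against H-CM from 0, 1 and 4 (6 h, 12 h and 24 h) to 1, 0 and 0, and those against unstimulated EGCs from 0, 3 and 4 to 2, 0 and 2. The count of TME-CM against H-CM at 12 h became 2 with no filter (Il1r1 and Il1rl1) and 2 with DESeq2's Wald test (Il1r1 and Il1rap), and 0 with Yam1 removed. Against unstimulated EGCs, no filter gave 1 at 6 h (Il1r1), and 4 at 12 h and 5 at 24 h, where Il1rl1 was added, and for H-CM against unstimulated EGCs at 24 h no filter and DESeq2 each gave 1 (Il1rn). Leaving out a library gave 0 to 2 for TME-CM against H-CM at 12 h, 2 to 4 at 24 h, 0 to 1 against unstimulated EGCs at 6 h, and 0 to 1 for H-CM against unstimulated EGCs at 24 h. The 2 at 24 h came without H-CM 24 h replicate 3, leaving Il1r1 and Il1rap. No alternative called a member lower.

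Of 619 alternative values of single members, 561 stayed on their side of the threshold with the same sign, 34 fell short of it, 18 newly passed it and 6 changed sign, none of the 6 past the threshold. Il1rl1 against unstimulated EGCs at 6 h turned to 0.73 with the replicate block, to 1.28 without unstimulated 6 h replicate 3 and to 1.29 with no library under 500000 counts, and leaving out any 1 library gave -1.40 to 1.28. Il1rl1 with H-CM against unstimulated EGCs at 24 h turned to -0.17 without unstimulated replicate 4 and -0.58 without H-CM replicate 1 (range -0.58 to 0.94), and Il33 in TME-CM against H-CM at 24 h to -0.077 without TME-CM replicate 3 (range -0.077 to 0.47). Group levels moved by more than their SD in 16 of 90 cases with Yam1 removed and in 0 of 90 on plain library totals. The cause of these changes was not tested.

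Libraries of the same replicate number were at most weakly alike over all genes tested, with correlations of their deviations from -0.162 to 0.242. These were not all over 0.1 in any comparison. Each of the 4 H-CM 24 h libraries correlated most with the H-CM 12 h library of its own number. Summed macrophage and monocyte markers at 12 h and at 24 h were higher in replicates 1 and 2 than in 3 and 4 in every medium. At 12 h they were 215, 347, 114 and 66.6 CPM in unstimulated EGCs and 224, 422, 94.7 and 113 CPM with TME-CM. At 24 h they were 270, 237, 82.6 and 67.3 CPM in unstimulated EGCs and 256, 437, 139 and 91.2 CPM with TME-CM. The main tests treated libraries as unpaired. With the replicate number as a block, the count of TME-CM against H-CM fell to 0 at 12 h and to 3 at 24 h, where Il1rl2 had an adjusted p of 0.0522, and the other 15 counts were the same. With DESeq2 the adaptor list had 1 call at 24 h instead of 0 and the inflammasome list 2 at 12 h instead of 0. At 6 h, where library totals were lowest, 6 of the 10 members had too few counts for a test, and the differences of Il1r1 had SEs of 0.66, against 0.20 and 0.19 at 24 h.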
